A study of Homo sapiens with 8 samples.

Results

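Genes of the NRF2 oxidative stress response were followed through neural cultures grown from the established human stem cell line H1, of embryonic origin. They were taken by symbol from the matrix, and all 10 were found among its 60286 genes: HMOX1, NQO1, SLC7A11, GCLC, GCLM, TXNRD1 and SRXN1, which are textbook targets of the transcription factor NRF2, and SOD1, SOD2 and CAT, which remove superoxide and hydrogen peroxide. The series names dopamine, cocaine, morphine and untreated cultures, in 2-D and 3-D. RNA was read from single cells by split-pool barcoding (SplitBio), which marks a cell by the series of wells it passes through.

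NRF2, encoded by NFE2L2, is held in the cytoplasm by KEAP1, which passes it on for degradation. Oxidants and electrophiles disable KEAP1, and NRF2 then enters the nucleus, pairs with a small MAF protein and binds antioxidant response elements, at which BACH1 acts as a repressor. In the brain the pathway is best known from astrocytes, which make glutathione and support neurons with little NRF2 activity of their own. SLC7A11 is also a target of ATF4, the factor of the amino acid response.

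The 8 deposited samples were sublibraries of 1 pool of cells, and the culture was read from a tag in each cell name. There were 46 tags, with 317 to 1959 cells and 3624668 to 58777176 expected counts each, and 43693 cells in all. The arrangement 2DCocu had 12 tags, 4 each of AcCoc, AcMor and Vehic. The arrangement 3DFusi had 10 tags, 4 of AcCoc, 3 of AcMor and 3 of Vehic. The arrangements 2DMono and 3DMono had 6 tags each, 2 of AcDop, 2 of AcMor and 2 of Vehic. The other 5 arrangements carried the letters Proto and no treatment: 2DProto2Fjo, 2DProto3Wu and 2DProto4Nic with 2 tags each, and 3DProto1For and 3DProto2Xia with 3 each. The labels define neither these names nor a dose or time, and do not say whether numbered tags were separate cultures, so n counts tags and p-values measure only the spread between tags, which may be technical. All tags come from the 1 line. Papain is stated for organoids, 2 to 3 of them together, and no such step is given for 2-D cultures. Of 41192 barcode strings, 2393 occurred in more than 1 sublibrary and 0 were repeated within one, so cells were kept apart by sublibrary.

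The labelled cell type, hESC, gives the origin of the cultures. The 6 pluripotency markers POU5F1, NANOG, DPPA4, LIN28A, TDGF1 and ZFP42 summed to 0.213 to 8.41 CPM per tag (expected counts scaled to the total of the tag), and ZFP42 stayed under 3 counts in every tag. The 8 general neuron markers summed to 985 to 2340 CPM. Clustering without the 10 genes and their pathway lists gave 29 clusters, and marker genes named 20 of them, always with the ending -like. In sums over all cells of a tag, fewer cells of a type that uses a gene and less of its RNA per cell cannot be told apart, so values within classes are given wherever tags held enough cells.

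NRF2 binds the antioxidant response element, whose core was searched for as TGACNNNGC on both strands of RefSeq promoter windows (250 bases before to 50 after the start, GRCh38.p14). Of the 10 genes, 7 had an entry, with 11 windows, and 3 of those windows (27.3%) held the core, against 4687 of all 35116 windows (13.3%). The matches lay in GCLM and in 2 starts of TXNRD1. The windows of the targets NQO1, GCLC and SRXN1 held none, nor did those of SOD2 and CAT. The GCLM and TXNRD1 windows are shown with that of CAT, a member without a match. Each is given over 150 bases in the direction of the gene, with the matches in capitals. The GCLM stretch is chr1:93909430-93909579 on the minus strand, and its match lies 34 to 26 bases before the start. The TXNRD1 stretches are chr12:104215630-104215779 and chr12:104286883-104287032 on the plus strand, and the CAT stretch is chr11:34438785-34438934 on the plus strand. A match is a string of letters and not a measured binding site. Bases outside these windows were not searched, so a window without a match does not show that a gene lacks an element.
GCLM: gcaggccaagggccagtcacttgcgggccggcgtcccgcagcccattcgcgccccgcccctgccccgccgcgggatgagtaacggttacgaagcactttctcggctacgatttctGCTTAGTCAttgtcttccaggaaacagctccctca
TXNRD1, upstream start: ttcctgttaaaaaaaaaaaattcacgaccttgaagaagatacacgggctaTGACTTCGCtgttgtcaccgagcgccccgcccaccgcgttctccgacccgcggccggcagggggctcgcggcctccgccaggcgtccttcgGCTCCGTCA
TXNRD1, downstream start: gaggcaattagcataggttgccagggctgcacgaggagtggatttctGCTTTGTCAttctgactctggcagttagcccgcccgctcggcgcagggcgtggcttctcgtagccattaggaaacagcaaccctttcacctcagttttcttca
CAT: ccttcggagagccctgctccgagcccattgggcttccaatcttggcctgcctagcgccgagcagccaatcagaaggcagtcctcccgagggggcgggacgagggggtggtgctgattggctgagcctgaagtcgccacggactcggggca

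All 10 genes were detected over all cells, but at depths that differ widely. SLC7A11, which brings cystine into the cell for glutathione, ran from 27.6 to 149.5 CPM over the 46 tags (median 66.8). GCLC and GCLM, the catalytic and the modifier subunit of the enzyme that makes the first step to glutathione, ran from 19.7 to 46.0 and from 5.52 to 24.9 CPM. TXNRD1, which recharges thioredoxin, ran from 62.7 to 118 CPM.
SRXN1, which repairs over-oxidised peroxiredoxins, ran from 0 to 3.15 CPM on 705 counts in all, under 3 counts in 4 tags. HMOX1, which breaks down haem, ran from 0.211 to 4.41 CPM on 1073 counts, under 3 counts in 1 tag. NQO1, which reduces quinones, ran from 2.57 to 20.7 CPM on 6357 counts. For HMOX1 and SRXN1 the depth is therefore low in single tags.
SOD1, the cytosolic superoxide dismutase, ran from 6.25 to 25.2 CPM, and SOD2, the mitochondrial one, from 58.7 to 117 CPM. CAT, the catalase that splits hydrogen peroxide, ran from 1.68 to 23.1 CPM. The spread was widest, relative to the median, in SRXN1, HMOX1, NQO1, SLC7A11 and CAT, and the plot of levels by tag shows where each stood high or low. Locations in GRCh38.p14, by RefSeq, are chromosome 4, 138164097 to 138242349 for SLC7A11, chromosome 11, 34438934 to 34472060 for CAT, chromosome 16, 69709401 to 69726560 for NQO1 and chromosome 22, 35381096 to 35394207 for HMOX1.

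**Figure D1:**
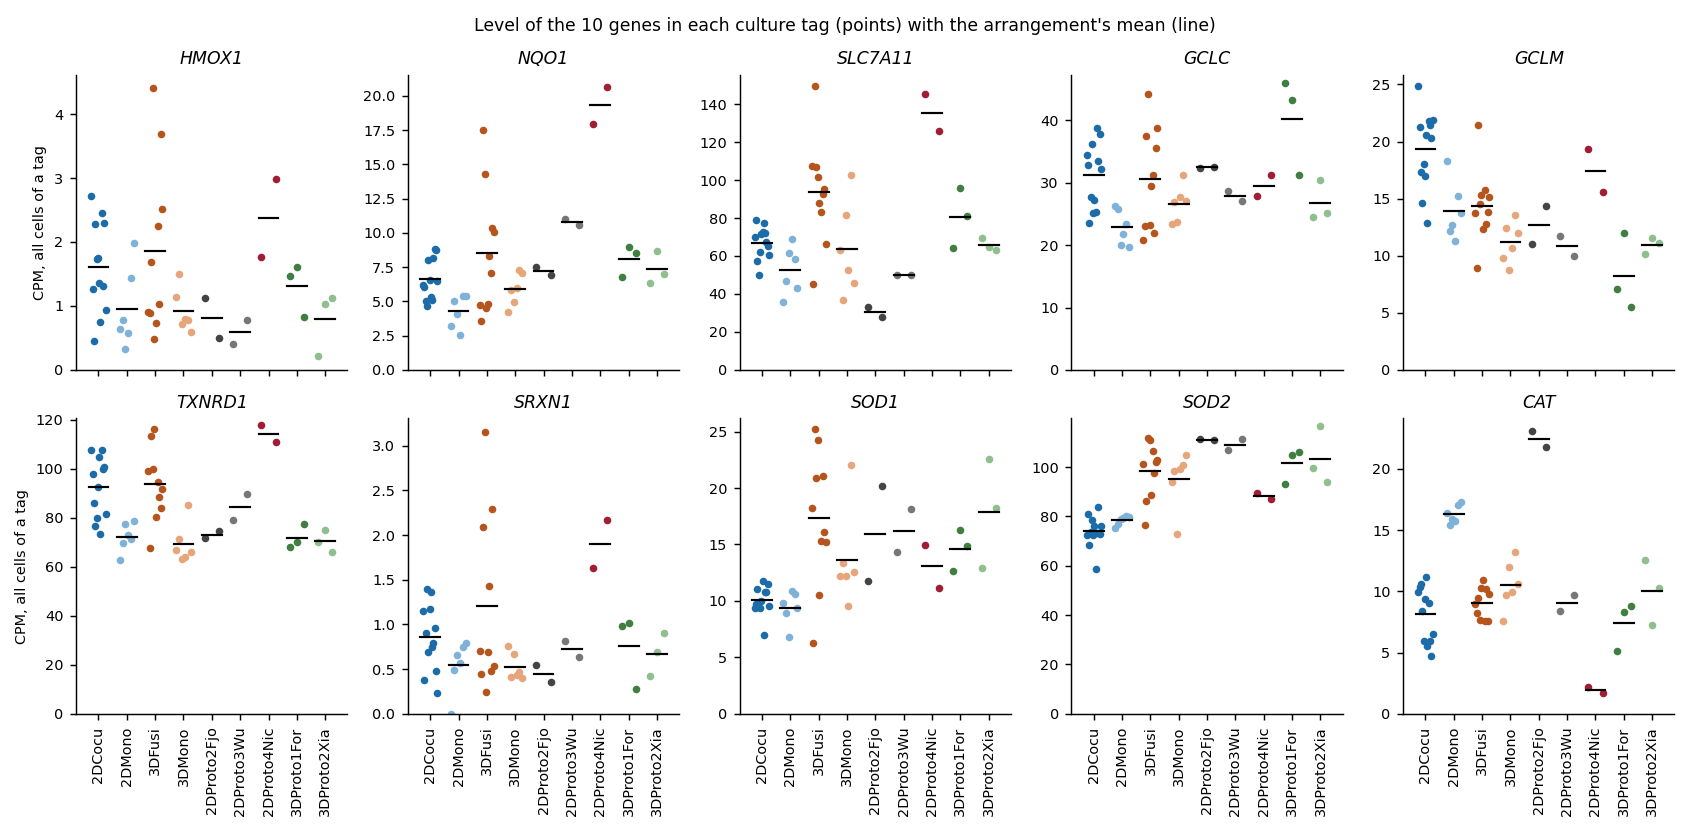
Level of each of the 10 genes in CPM over all cells of a tag (y axis, from 0, 1 scale per gene), by arrangement (x axis). Points are the 46 tags and lines the mean of an arrangement. CAT is lowest in the 2 tags of 2DProto4Nic (2.19 and 1.68 CPM) and highest in those of 2DProto2Fjo (23.1 and 21.8 CPM), while NQO1 and TXNRD1 have their highest arrangement mean in 2DProto4Nic.

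Among the 2-D protocol arrangements, 2DProto4Nic stood apart in 6 of the 10 genes: SLC7A11, HMOX1, SRXN1, NQO1 and TXNRD1 were higher and CAT was lower than in the other 2. In cystine import, SLC7A11 was at 145 and 126 CPM in 2DProto4Nic, 49.77 and 49.95 in 2DProto3Wu, and 33.1 and 27.6 in 2DProto2Fjo. The 2DProto4Nic tags lay above both other pairs, and the log2 fold change against their average was 2.07 (SE 0.171, adjusted p = 5.84e-05 in edgeR). The second pair of glutathione genes did not pass: GCLM was at 19.4 and 15.5 CPM in 2DProto4Nic (0.84, adjusted p = 0.0620), and GCLC differed by 0.24.
In the thioredoxin branch, TXNRD1 was at 118 and 111 CPM in 2DProto4Nic, 79.2 and 89.6 in 2DProto3Wu, and 71.7 and 74.5 in 2DProto2Fjo, and it rose by 0.81 on the log2 scale (SE 0.127, adjusted p = 0.00194). SRXN1 was at 1.63 and 2.17 CPM against 0.813 and 0.632, and 0.548 and 0.353 (2.02, SE 0.358, adjusted p = 0.00384). Neither gene overlapped between 2DProto4Nic and the other pairs.
HMOX1 was at 1.77 and 2.99 CPM in 2DProto4Nic, 0.407 and 0.773 in 2DProto3Wu, and 1.13 and 0.495 in 2DProto2Fjo (2.06, SE 0.460, adjusted p = 0.0125). NQO1 was at 17.97 and 20.65 CPM, against 11.04 and 10.54, and 7.50 and 6.96 (1.40, SE 0.192, adjusted p = 0.000978). For both, the 2DProto4Nic tags were the highest of the 6. SOD1 and SOD2 each differed by -0.04 and did not pass.
CAT ran the other way, at 2.19 and 1.68 CPM in 2DProto4Nic, 8.42 and 9.66 in 2DProto3Wu, and 23.1 and 21.8 in 2DProto2Fjo, 3 levels that did not overlap. It fell by 2.62 on the log2 scale (SE 0.330, adjusted p = 0.000586). In this comparison 15.9% of the 25580 genes tested were called, 8.73% higher and 7.18% lower, and the median log2 fold change was 0.83 over the 10 genes and -0.01 over all genes. With total counts as scaling in place of TMM that median moved to -0.28 and calls that were higher went from 54.9% to 25.4%, while the same 6 genes were called.

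The mirror contrast, 2DProto2Fjo against the other 2, uses the same 6 tags and is no separate evidence. There CAT rose by 2.33 (SE 0.272, adjusted p = 0.00105), and SLC7A11 fell by 1.54 (adjusted p = 0.00142), NQO1 by 1.09 (adjusted p = 0.0128) and TXNRD1 by 0.52 (adjusted p = 0.0481), with 4.94% of all genes called, 3.18% higher and 1.76% lower. In 2DProto3Wu against the other 2, 0 of 10 passed (lowest adjusted p = 0.0823, SLC7A11 at -0.54, with 3 at an unadjusted p under 0.05 and 11.7% of all genes called). SLC7A11 passed there without called doublets (-0.72, adjusted p = 0.0200) and without 3DProto1For tag 1 or 2 (0.0477 and 0.0446). Between 3DProto1For and 3DProto2Xia 0 of 10 passed in edgeR, where 0% of all genes were called and 1 of the 10 had an unadjusted p under 0.05. That gene was GCLC, at 46.0, 43.3 and 31.2 CPM against 24.6, 30.5 and 25.1, groups that do not overlap (0.54, adjusted p = 0.287).
Without 2DProto4Nic tag 2 the HMOX1 value was 1.61 (adjusted p = 0.221) and that of SRXN1 1.79 (adjusted p = 0.0880), and without 2DProto3Wu tag 1 HMOX1 stood at 1.89 (adjusted p = 0.0520). In 2DProto2Fjo the NQO1 call was lost without either of its tags (adjusted p = 0.147 and 0.165), without 2DProto3Wu tag 1 (0.0557) and without 2DProto4Nic tag 2 (0.0518), and that of TXNRD1 without any 1 of the 6 tags of the 2-D protocols (0.105 to 0.390) or without 3DProto1For tag 1 or 2 or 3DProto2Xia tag 1 or 3 (0.0512 to 0.0597). SRXN1 there passed without 3DProto1For tag 3 (-1.47, adjusted p = 0.0362). The TXNRD1 call was also lost with RLE size factors (adjusted p = 0.0571), total counts as scaling (0.0830), no count filter (0.144) and called doublets removed (-0.38, 0.208). GCLM in 2DProto4Nic was called by DESeq2 (0.85, adjusted p = 0.0324) and without 3DProto1For tag 2 or 3 or 3DProto2Xia tag 2 (0.0206 to 0.0498).

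The cell classes differed as well. Mesenchymal-like cells, the class with the highest mean SLC7A11, made up 33.8% ± 6.4 (SD, n = 2) of the cells of a 2DProto4Nic tag, 0.538% in 2DProto2Fjo and 0.604% in 2DProto3Wu. All 8 mesenchymal markers were detected in each arrangement, and they summed to 2150 to 2193 CPM in 2DProto4Nic, 124 to 143 in 2DProto2Fjo and 173 to 179 in 2DProto3Wu. The share of mitochondrial counts was 6.44 to 6.54% in 2DProto4Nic tags, 3.13 to 3.83% in 2DProto2Fjo and 2.66 to 4.91% in 2DProto3Wu, and its part in these results was not tested.
The classes with 20 or more cells in every tag of 2DProto4Nic and 2DProto2Fjo were cycling-like, excitatory neuron-like and neuron-like cells. Within them CAT was called in 3 of 3 and the other members in 0 of 21 tests. Over all genes 14.8%, 17.6% and 9.21% were called in these classes, and 14.2% of gene and class pairs.

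In cycling-like cells CAT was at 0.301 and 0.727 CPM in 2DProto4Nic (1 and 8 counts) and at 23.5 and 32.3 CPM in 2DProto2Fjo. In excitatory neuron-like cells it was at 2.51 and 4.25 against 23.8 and 23.5 CPM, and in neuron-like cells at 0 and 1.13 (0 and 2 counts) against 14.0 and 17.7 CPM. The pairs of tags lay far apart in each class. CAT fell by 5.26 on the log2 scale in cycling-like cells (SE 0.493, adjusted p = 7.45e-06), by 2.52 in excitatory neuron-like cells (SE 0.336, adjusted p = 0.000880) and by 4.28 in neuron-like cells (SE 0.701, adjusted p = 0.00352). The fitted values of the first and last rest on few counts and depend on the small count that edgeR adds.
Within single clusters CAT differed the same way. Cluster 19, which held 99.8% of the cycling-like cells of 2DProto4Nic and 81.4% of those of 2DProto2Fjo, had CAT at 0.515 against 29.9 CPM. Cluster 18, which held 50.9% and 98.4% of the excitatory neuron-like cells, had 3.29 against 23.4 CPM (cluster 1 held 47.9% and 1.61%), and cluster 4, all the neuron-like cells of both, 0.564 against 15.9 CPM. In the mesenchymal-like cells of 2DProto4Nic CAT was at 3.23 and 1.60 CPM. Cells with a CAT count made up 4.06% of 2DProto4Nic and 32.3% of 2DProto2Fjo, at median depths of 21852 and 18193 counts, and 0.5% and 9.88% once every cell was thinned to 5000 counts.
SLC7A11 passed in none of these classes, with log2 fold changes of -0.86 in cycling-like, -0.69 in excitatory neuron-like and 1.3 in neuron-like cells (lowest adjusted p = 0.0708). Its level in the mesenchymal-like cells of 2DProto4Nic was 256 ± 61 CPM (SD, n = 2). NQO1 differed by 1.28 in cycling-like cells (adjusted p = 0.0760). Without 2DProto4Nic tag 2 SLC7A11 passed in excitatory neuron-like (-3.21) and neuron-like cells (1.65), in opposite directions, and with called doublets removed it passed in neuron-like cells (1.605, adjusted p = 0.0272), the direction seen over all cells. The plot of CAT within classes shows these values beside those of 2DCocu.

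**Figure D2:**
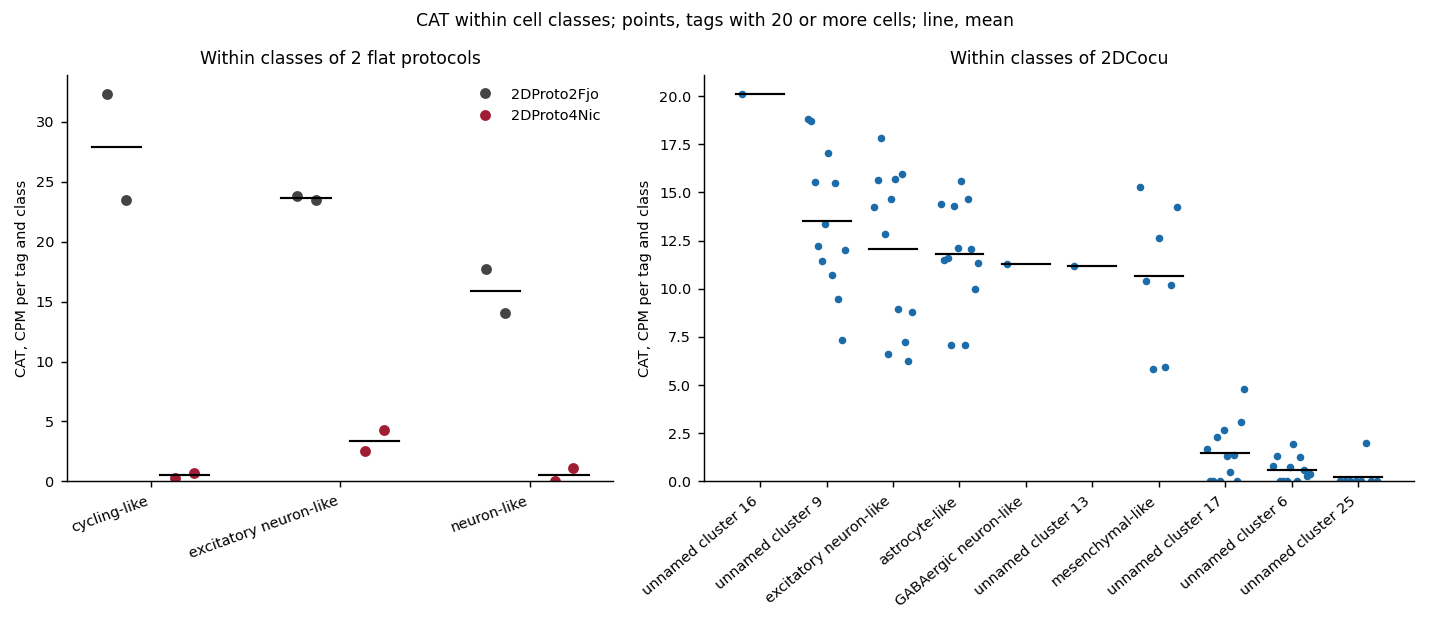
CAT in CPM per tag and class (y axes, from 0) in 3 classes of 2DProto2Fjo and 2DProto4Nic (left) and in the classes of 2DCocu (right). Points are tags with 20 or more cells of the class and lines are means. On the left every 2DProto4Nic tag is at 4.25 CPM or lower and every 2DProto2Fjo tag at 14.0 or higher, and on the right clusters 17, 6 and 25 have means of 1.47, 0.615 and 0.249 CPM.

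The genes that set NRF2's activity were read from a list of 11 regulators. In 2DProto4Nic against the other 2-D protocols 5 of 11 rose and 0 fell, where 8.73% of all genes tested were higher and 7.18% lower. BACH1, the repressor, was at 244 ± 27 CPM (SD, n = 2) against 141 ± 4 (n = 4) and rose by 1.06 (SE 0.147, adjusted p = 0.00102). MAFK, a small MAF partner, rose by 1.695 and NFE2L1, a relative of NRF2, by 1.33 (adjusted p = 0.00708 and 0.00881), while NFE2L2 and KEAP1 did not pass.
Over all 8 pathway lists, 80 of 84 genes were tested, and 13 rose and 1 fell, against the same shares over all genes. ME1, malic enzyme, a supplier of NADPH, was at 19.9 ± 0.15 CPM (n = 2) against 5.29 ± 2.96 (n = 4) and rose by 2.38 (adjusted p = 0.00455). NOX4, an oxidase that makes hydrogen peroxide, rose by 1.64 (adjusted p = 0.00179) and PIR, pirin, by 1.14 (adjusted p = 0.00276). AKR1C2, an aldo-keto reductase, was the one that fell, by 1.21 (adjusted p = 0.00904).

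The culture format was compared with 3DMono against 2DMono, 6 tags each, with treatment in the fit. CAT, TXNRD1 and GCLM were lower in 3-D, and 0 of 9 tested members were higher, where 38% of all 21862 genes tested were called (17.5% higher, 20.4% lower). As a share of members called, 3 of 9 is no more than the background. CAT had a lowest, median and highest value of 7.55, 10.3 and 13.2 CPM in 3DMono and of 15.4, 16.1 and 17.3 in 2DMono. Every 3DMono tag lay under every 2DMono tag, and CAT fell by 0.82 (SE 0.140, adjusted p = 0.000354).
GCLM ran from 8.73 over 11.3 to 13.5 CPM in 3DMono and from 11.3 over 13.2 to 18.3 in 2DMono, with overlap, and fell by 0.50 (SE 0.141, adjusted p = 0.0118). TXNRD1 ran from 63.4 over 66.4 to 85.1 CPM and from 62.7 over 72.0 to 78.8, with wide overlap, and fell by 0.24 (SE 0.087, adjusted p = 0.0399). SRXN1 was under the count filter.
The fold changes use TMM scaling, which sets the bulk of genes to no change. With total counts alone as scaling, the median of all genes moved from 0.03 to 0.22, calls that were higher went from 46.2% to 67.4%, the GCLM value was -0.31 (adjusted p = 0.0851) and that of TXNRD1 -0.06 (0.671), and SOD1 (0.53) and SOD2 (0.27) passed, while CAT stayed at -0.63 (adjusted p = 0.00126), with 44.4% of genes called. The TXNRD1 call was also lost without any 1 of 9 of the 12 tags (all but 2DMono AcDop 1, 3DMono AcDop 2 and 3DMono Vehic 1, with an adjusted p of up to 0.1002), with RLE size factors (-0.23, adjusted p = 0.0510) and without the count filter (-0.19, 0.327). With the 2 Vehic tags of each arrangement alone none of the 3 passed, at -0.75 for CAT (adjusted p = 0.0713), -0.42 for GCLM (0.272) and -0.20 for TXNRD1 (0.447).
Astrocyte-like cells, the class with the highest mean GCLM and with high TXNRD1, made up 34.1% ± 13.2 of the cells of a 2DMono tag and 0.0147% in 3DMono, and their part in these falls was not tested. Cluster 0, the main cluster of this class, carried 4 of 8 astrocyte markers. In a coarser clustering (Leiden resolution 0.4) the cluster with the same leading genes carried 3 of 8, too few for a name.

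NFE2L2 itself was lower in 3DMono, at 85.23 ± 11.96 against 109 ± 15 CPM (SD, n = 6 each), and fell by 0.54 (adjusted p = 0.000255). Of the 11 regulators 0 rose and 4 fell, among them MAFK by 2.03 (adjusted p = 3.01e-05). Of the 16 other glutathione genes 3 rose and 1 fell, with MGST1, a membrane glutathione transferase, at 289 ± 76 against 89.6 ± 29.8 CPM (1.48, adjusted p = 0.000183). Of 8 genes of the ATF4 amino acid response 5 rose and 1 fell. That one was SLC7A5, a carrier of large amino acids, which fell by 1.62 (adjusted p = 6.80e-06), while SLC7A11, which shares ATF4 as a regulator, differed by 0.09 (adjusted p = 0.761). NOX4 fell by 2.29 and ABCC3, an export pump, by 3.91 (adjusted p = 1.58e-06 and 3.20e-07). Over the 8 lists, 19 of 79 tested genes rose and 13 fell. These counts stand against 17.5% of all genes called higher and 20.4% called lower.

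In 3DFusi against 2DCocu, 10 and 12 tags, 3 members rose and 1 fell, where 48.8% of all 22511 genes tested were called (26.1% higher, 22.7% lower), so 4 of 10 is no more than the background. SOD1 ran from 6.25 over 17.2 to 25.2 CPM in 3DFusi and from 7.01 over 9.96 to 11.7 in 2DCocu, and rose by 0.72 (SE 0.168, adjusted p = 0.00120). SOD2 ran from 76.4 over 102 to 112 CPM and from 58.7 over 73.5 to 83.9, and rose by 0.34 (SE 0.0715, adjusted p = 0.000474). The lowest 3DFusi tag lay under the range of 2DCocu for SOD1 and inside it for SOD2. With Vehic tags alone SOD2 was at 0.31 (adjusted p = 0.0659) and SLC7A11 at 0.28 (0.230), neither called.
SLC7A11 ran from 45.1 over 93.8 to 149.5 CPM in 3DFusi and from 50 over 68.49 to 79.02 in 2DCocu, and rose by 0.39 (SE 0.140, adjusted p = 0.0241). The 3 classes with the highest mean SLC7A11 had larger shares in 3DFusi than in 2DCocu: mesenchymal-like cells 17.9% against 4.15%, radial glia or progenitor-like 7.6% against 0% and ciliated or ependymal-like 7.07% against 0.0855%. Their part in the rise was not tested. GCLM ran from 8.93 over 14.2 to 21.4 CPM and from 12.9 over 20.5 to 24.9, and fell by 0.50 (SE 0.119, adjusted p = 0.00140). Astrocyte-like cells made up 18.1% ± 3.5 of a 2DCocu tag and 0.0113% of a 3DFusi tag, and their part in the GCLM fall was not tested. The SLC7A11 call was lost when 3DFusi tags of 1 number were summed, as those tags varied together (0.29, adjusted p = 0.144), and without 3 clusters found nearly only in 2DCocu (0.15). GCLM, SOD1 and SOD2 were called in both, where 40.3% and 45.4% of all genes were called. With total counts as scaling the same 4 members were called, and calls that were higher went from 53.5% to 63.6%.
Among the pathway lists, 9 of 16 glutathione genes rose and 1 fell, and 8 of 14 thioredoxin and peroxiredoxin genes rose and 0 fell, with TXNIP, an inhibitor of thioredoxin, at 47.6 ± 12.1 against 13.6 ± 2.9 CPM (1.73, adjusted p = 1.70e-09). Of 7 NADPH genes 0 rose and 3 fell, and ME1 fell by 3.06 (10.6 ± 9.0 against 81.1 ± 22.4 CPM). ME1 is a leading gene of cluster 6, which drew 99.6% of its cells from 2DCocu, and the part of that cluster was not tested. KEAP1 rose by 0.33 (adjusted p = 0.0184). Over the 8 lists 34 of 80 rose and 14 fell, where 26.1% of all genes were higher and 22.7% lower.

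Over all cells SLC7A11 was higher in 3DFusi and differed by 0.09 in 3DMono (adjusted p = 0.761). Within excitatory neuron-like cells of the treated arrangements it was lower in 3-D. It ran from 0 over 4.795 to 12.91 CPM in 3DFusi and from 35.04 over 59.53 to 78.52 in 2DCocu. Every 3DFusi tag lay under every 2DCocu tag, and the log2 fold change was -3.52 (SE 0.285, adjusted p = 1.25e-09, 43.5% of genes called). It ran from 1.99 over 4.47 to 14.8 CPM in 3DMono and from 15.5 over 33.2 to 53.9 in 2DMono, again without overlap (-2.72, SE 0.392, adjusted p = 0.000124, 34.9% called). The protocol arrangements, whose formats were not tested against each other, did not show this order. There SLC7A11 in this class was at 12.6 and 14.6 CPM in 2DProto2Fjo and 1.26 and 11.6 in 2DProto4Nic. In 3-D it was at 8.70 in 3DProto1For (1 tag) and 8.95 and 26.0 in 3DProto2Xia.
Different clusters held this class in the formats: clusters 2 and 11 held 62.2% and 37.4% of it in 2DCocu and 63.5% and 36.3% in 2DMono, and cluster 1 held 93.1% in 3DFusi and 99.1% in 3DMono. SLC7A11 was at 82.0 ± 24.0 CPM in cluster 2 and 48.9 ± 9.6 in cluster 11 of 2DCocu (n = 12 tags each). Cluster 1 also occurred in 2DProto4Nic, a 2-D arrangement, and SLC7A11 was at 1.86 ± 0.66 CPM there (n = 2), beside 3.94 ± 4.18 in cluster 1 of 3DFusi (n = 10). Format and kind of excitatory neuron-like cell therefore cannot be told apart in this difference.
SLC7A11 in GABAergic neuron-like cells was low in both formats, with a median of 3.71 CPM in 3DMono and 9.24 in 2DMono.

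**Figure D3:**
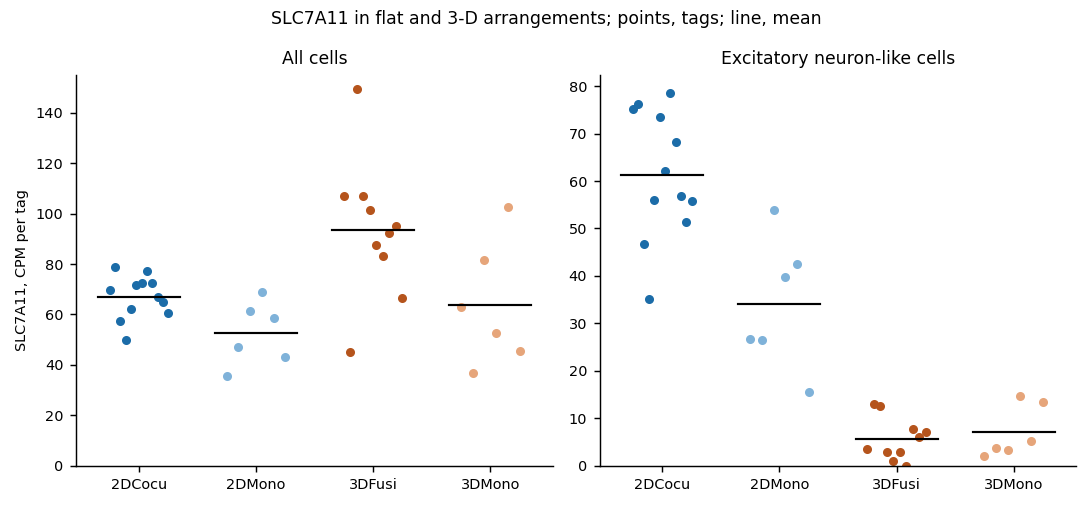
SLC7A11 in CPM per tag (y axes, from 0, different scales) over all cells (left) and in excitatory neuron-like cells (right) of 4 arrangements. Points are tags and lines are means. On the right the 3DFusi and 3DMono tags are at 0 to 14.8 CPM, under all tags of 2DCocu and 2DMono (15.5 to 78.5), while on the left the arrangements overlap.

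Other members within neurons moved as follows. In excitatory neuron-like cells NQO1 rose in 3DMono against 2DMono (5.25 ± 1.57 against 2.25 ± 1.22 CPM, 1.18, adjusted p = 0.00894) and in 3DFusi against 2DCocu (5.39 ± 2.84 against 3.04 ± 0.88, 0.77, adjusted p = 0.0238). TXNRD1 fell in both, by 0.42 and 0.47 (adjusted p = 0.00991 and 0.00196). SOD1 rose in 3DFusi (0.63, adjusted p = 0.0222), where NQO1 and SOD1 each lost the call without either of 2 tags (NQO1 without AcCoc 3 or AcMor 4, adjusted p = 0.0628 and 0.0909, and SOD1 without AcCoc 1 or Vehic 1, 0.0660 and 0.114). The NQO1 call was also lost without the count filter (0.72, adjusted p = 0.0642) and that of SOD1 without called doublets (0.52, adjusted p = 0.108). In 3DMono SOD1 differed by 0.63 (adjusted p = 0.0570) and was called by DESeq2 (0.64, 0.0427) and without 2DMono AcDop 1, 2DMono AcMor 2 or 3DMono AcMor 2 (0.0221 to 0.0421). GCLC in 3DFusi differed by 0.36 (adjusted p = 0.0897) and was called without doublets (0.62, 0.0237) and without 2DCocu AcCoc 1 or 3DFusi Vehic 1 (0.0442 and 0.0172). Without the count filter, which otherwise left both untested, HMOX1 was called in 3DFusi (-2.47, 0.0238) and NQO1 in the GABAergic neuron-like cells of 3DMono (1.67, 0.0431).
CAT was lower in 3DMono than in 2DMono in both neuron classes that could be tested. It fell by 0.62 in excitatory neuron-like cells (12.2 ± 1.5 against 17.7 ± 4.1 CPM, adjusted p = 0.0103). In GABAergic neuron-like cells it ran from 5.39 over 7.27 to 11.6 CPM in 3DMono and from 15.3 over 18.1 to 28.1 in 2DMono, without overlap, and fell by 1.203 (SE 0.294, adjusted p = 0.00549, 21.2% of genes called).
In 3DFusi CAT differed by -0.46 from 2DCocu in excitatory neuron-like cells (adjusted p = 0.0924), and passed without called doublets (-0.99) and without 3DFusi Vehic 1 (-0.67). GCLC rose in 3DMono in both classes, by 0.75 and 0.92 (adjusted p = 0.00244 and 0.0428), the second without overlap (13.9 to 26.9 against 0 to 13.1 CPM) but not called without any 1 of 7 tags (2DMono AcDop 1, AcMor 2 and Vehic 1, and 3DMono AcDop 2, AcMor 2, Vehic 1 and Vehic 2, adjusted p up to 0.116) or without the count filter (0.93, 0.0728). GABAergic neuron-like cells came from cluster 21 in 2DMono (89.7%) and from cluster 5 in 3DMono (98.2%). In all, 11 of 20 tests of a member within a class passed in the 2 format comparisons, where 34.6% of all gene and class pairs were called.

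In 2DCocu against 2DMono, over their AcMor and Vehic tags, GCLC, GCLM and NQO1 were higher and CAT and SOD2 lower, with 29.9% of 21435 genes called (14.6% higher, 15.3% lower). Over all tags CAT ran from 4.70 over 8.72 to 11.2 CPM in 2DCocu and from 15.4 over 16.1 to 17.3 in 2DMono, without overlap, and fell by 1.31 (SE 0.174, adjusted p = 1.75e-05). GCLC ran from 23.6 over 32.5 to 38.8 CPM and from 19.7 over 22.6 to 26.2, and rose by 0.45 (SE 0.117, adjusted p = 0.00700), with no overlap among the tags fitted. GCLM rose by 0.39 (adjusted p = 0.0144, not called without the count filter at 0.37 and 0.0705) and NQO1 by 0.57 (adjusted p = 0.0159). SOD2 fell by 0.23 (adjusted p = 0.0271) and lost the call without any 1 of 7 of the 12 tags (2DCocu AcMor 4, Vehic 1 and Vehic 3, and all 4 of 2DMono, adjusted p up to 0.226) and with total counts as scaling (-0.11). The SOD2 call was also lost with called doublets removed (-0.21, adjusted p = 0.0553), without the count filter (-0.24, 0.115) and without 3 clusters found nearly only in 2DCocu (-0.12, 0.310).
With that scaling the median of all genes moved from -0.01 to 0.11, calls that were higher from 48.8% to 68.4%, and TXNRD1 passed too (0.30, adjusted p = 0.0355), with 27.6% of genes called.
ME1 was at 85.2 ± 24.8 CPM in 2DCocu (n = 8) and 8.35 ± 2.98 in 2DMono (n = 4) and rose by 3.30 (adjusted p = 1.09e-10), and PIR rose by 2.16 (adjusted p = 8.46e-09). The part of cluster 6, led by ME1 and nearly confined to 2DCocu, in the ME1 rise was not tested. Over the 8 lists 11 of 78 genes rose and 9 fell, where 14.6% of all genes were higher and 15.3% lower.
Whether format acts alike in the single and the combined arrangements was tested by an interaction term over their AcMor and Vehic tags, and CAT was the 1 member that passed (0.98, adjusted p = 0.0175), with 6.68% of all genes called. With the 6 3DFusi tags summed to 3 by number it was at 0.95 (adjusted p = 0.0201, 10.2% of genes called). The call was lost without 2DMono Vehic 1, 3DMono AcMor 2 or 3DMono Vehic 2 (0.86 to 0.93, adjusted p = 0.0646 to 0.0846), and without 3 clusters found nearly only in 2DCocu the difference was 0.31 (adjusted p = 0.589, 4.34% of genes called).

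Part of the CAT difference went with 3 clusters that were nearly confined to 2DCocu. Clusters 6, 17 and 25 drew 99.6%, 99.5% and 92.2% of their cells from it and made up 29.5 to 50.2% of the cells of a 2DCocu tag. They have no class name, cluster 6 being led by ALDH1L1, an astrocyte gene, and ME1, cluster 17 by SLC6A5, a glycine carrier, and PAX2, while 52.1% of cluster 25 were called doublets. Their mean CAT was 0.615, 1.47 and 0.249 CPM. In the same tags astrocyte-like cells had 11.8 ± 2.8 and excitatory neuron-like cells 12.1 ± 4.2 CPM (SD, n = 12), higher than cluster 6 in 12 of 12 tags. Cells with a CAT count made up 0.769% of cluster 6, at a median of 10741 counts per cell, against 13.7% of all cells at 12776.
Without these clusters CAT in 2DCocu was 12.1 ± 3.1 CPM (8.11 to 16) and the log2 fold change against 2DMono was -0.64 (adjusted p = 0.0101). NQO1 (0.84), GCLC (0.48) and GCLM (0.51) still passed, and SLC7A11 (0.41) and TXNRD1 (0.39) came in, with 19% of genes called. Against 3DFusi, CAT then passed as well, at -0.49 (adjusted p = 0.00482).

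In 3DFusi against 3DMono, over AcMor and Vehic tags, 0 of 10 members passed in edgeR, 2 having an unadjusted p under 0.05, and 1.47% of 23861 genes were called. The lowest adjusted p was 0.264, for CAT at -0.36, and HMOX1 differed by 1.07 (adjusted p = 0.269), at 0.486 to 4.41 CPM in all 3DFusi tags and 0.5987 to 1.504 in 3DMono. Of the 84 list genes 1 passed: MAFF, a small MAF protein, rose by 0.86 (8.04 ± 0.87 against 4.20 ± 0.74 CPM, adjusted p = 0.0391).

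**Figure D4:**
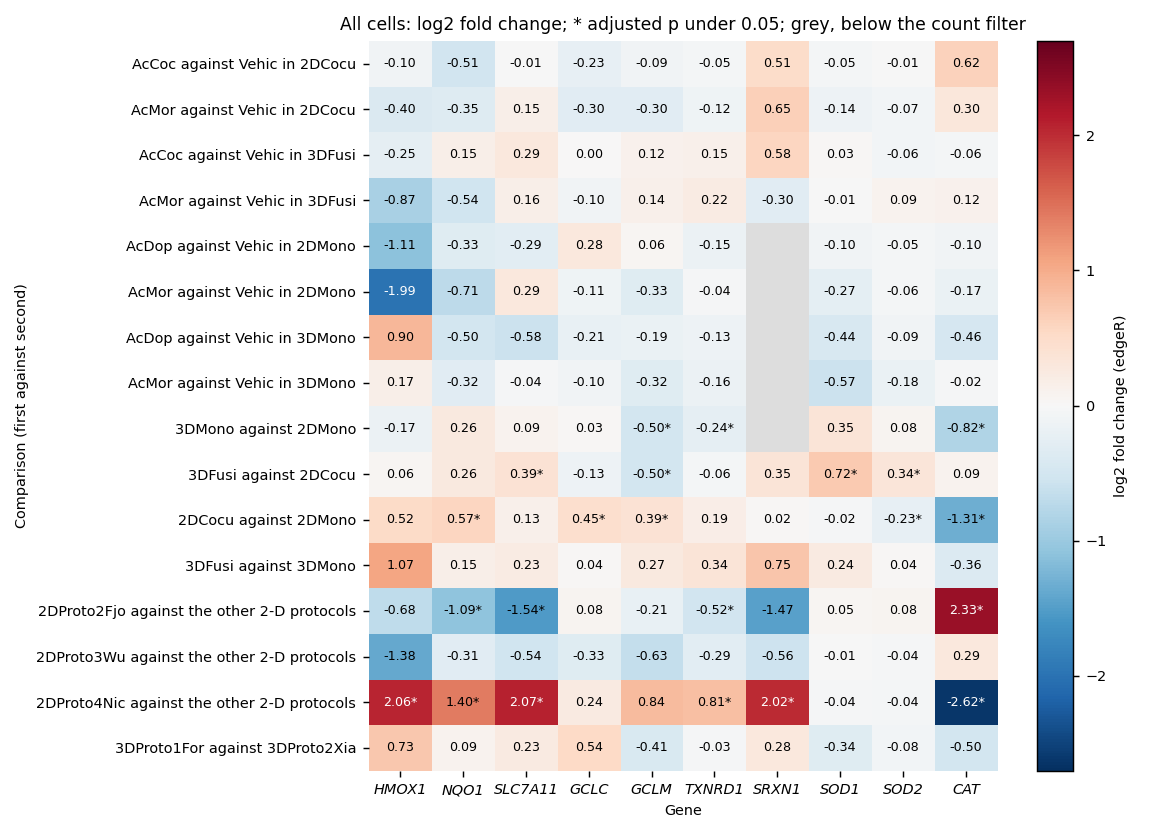
Log2 fold change of each gene (x axis) in each comparison over all cells (y axis), with colour and printed number for the value, an asterisk for an adjusted p under 0.05 in edgeR and grey for genes under the count filter. The 8 treatment comparisons at the top hold no asterisk, and the values with one run from -2.62 for CAT in 2DProto4Nic to 2.33 for CAT in 2DProto2Fjo.

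Treatment was compared with Vehic inside each arrangement. In edgeR 0 members passed in all 8 comparisons, which tested 10 members in 2DCocu and 3DFusi and 9, without SRXN1, in 2DMono and 3DMono. In 2DCocu 6.1% of all 21032 genes were called for AcCoc and 0.975% for AcMor, so the design could show some differences there. Calls that were higher went from 59.1% to 42.8% and from 70.2% to 42% with total counts as scaling. In the other 6 comparisons edgeR called 0% of all genes, with 393 and 177 at an unadjusted p under 0.05 in 3DFusi (AcCoc, AcMor), 467 and 1247 in 2DMono (AcDop, AcMor) and 740 and 1925 in 3DMono, while DESeq2 called 1 and 0, 13 and 18, and 20 and 178.
On simulated counts with 100 changed genes per fold size, a 2-fold change was recovered for 66% of genes in AcCoc against Vehic in 2DCocu, 12% in AcMor in 2DMono, 9% in AcMor in 3DMono and 0% in AcCoc in 3DFusi. In this simulation, where few genes changed, 2-fold changes were mostly not detected in the latter 3 comparisons. A 1.5-fold change was recovered for 28% of genes in AcCoc in 2DCocu and for 0% in each of the latter 3. Changes of that smaller size were thus mostly missed in 2DCocu too. Unchanged genes were called too, 9 in AcCoc in 2DCocu, 9 in AcMor in 3DMono and 0 in AcMor in 2DMono and AcCoc in 3DFusi. AcMor in 3DFusi and AcDop were not simulated.

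NQO1 and CAT came nearest to the threshold, with AcCoc in 2DCocu. NQO1 was at 6.16, 6.07, 5.05 and 4.70 CPM with AcCoc, 7.99, 6.59, 5.32 and 5.12 with AcMor and 8.15, 8.84, 8.73 and 6.52 with Vehic. The AcCoc tags lay under all Vehic tags, and the log2 fold change was -0.51 (SE 0.171, adjusted p = 0.0841). CAT was at 9.95, 10.4, 10.6 and 8.38 CPM with AcCoc, 5.90, 9.37, 11.2 and 5.52 with AcMor and 9.07, 5.95, 4.70 and 6.52 with Vehic. The AcCoc and Vehic values overlap by 1 Vehic tag (0.62, SE 0.214, adjusted p = 0.0945).
DESeq2 called both (NQO1 -0.51, adjusted p = 0.0425, and CAT 0.61, adjusted p = 0.0498), with 9.64% of all genes called. So did edgeR after removal of called doublets (-0.66 and 0.72, adjusted p = 0.0421 and 0.0207), with 13.2% called.
The share of mitochondrial counts and the mix of clusters moved with the treatment. The mitochondrial share of a 2DCocu tag's median cell was 0.968 to 2.17% with Vehic, 2.48 to 3.38% with AcCoc and 2.68 to 3.48% with AcMor, with no overlap between Vehic and either treatment, and its part in the NQO1, CAT and ME1 values was not tested. Cluster 6, where CAT is nearly absent, made up 35.4% ± 3.9 of the cells with Vehic, 16% ± 2.8 with AcCoc and 17.7% ± 2.5 with AcMor (SD, n = 4 tags), and cluster 17 made up 6.87%, 12.6% and 13.7%. With all tags brought to 1 common mix of 7 clusters, which covered 89.1 to 95.1% of cells, CAT was at 9.369 ± 1.317 CPM with AcCoc and 10.03 ± 1.747 with Vehic, a log2 difference of -0.08 (two-sided exact permutation test, p = 0.600). NQO1 then differed by -0.34 (exact permutation p = 0.0857, against a smallest possible p of 0.0286). With the 3 clusters found nearly only in 2DCocu left out, NQO1 was at -0.69 and passed in edgeR (adjusted p = 0.0350, 5.57% of genes called). CAT did not pass there. It was at 15, 14.8, 15.0 and 11.3 CPM with AcCoc and 14.8, 9.21, 8.28 and 10.3 with Vehic. The 2 ways of handling the clusters thus gave unlike CAT differences. None of the 40 permutation tests at a common mix passed after adjustment (lowest adjusted p = 0.791). The smallest p these tests allow is 0.1 for AcMor in 3DFusi (3 tags against 3) and 0.0286 for the others. The adjustment over 40 could therefore be passed only by many tests at their smallest p together. That none passed cannot decide whether a member differed at a common mix.

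Within classes 0 of 248 tests of a member against Vehic passed in edgeR (lowest adjusted p = 0.0747), with 0.4% of all gene and class pairs called and 8 of the 248 at an unadjusted p under 0.05. CAT with AcCoc differed by -0.07 in the astrocyte-like cells of 2DCocu and by 0.59 in its excitatory neuron-like cells (adjusted p = 0.179). Alternatives called single pairs. GCLC in the excitatory neuron-like cells of 2DCocu with AcMor was called by DESeq2 (-0.71, adjusted p = 0.0319) and without the count filter (-0.69, 0.0493). SLC7A11 in the radial glia or progenitor-like cells of 3DMono with AcMor was called without the filter (1.28, 0.000996) and without 3DMono AcDop 1 (1.22, 0.0479). CAT in the excitatory neuron-like cells of 2DCocu with AcCoc was called without 2DCocu Vehic 1 (0.95, 0.0456).

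HMOX1, the classical marker of oxidative injury, gave the 4 largest treatment differences by size and passed in none. In 2DMono it was at 1.43 and 1.99 CPM with Vehic, 0.328 and 0.572 with AcMor and 0.639 and 0.784 with AcDop. The Vehic tags were higher than both, but with 2 tags a group AcMor differed by -1.99 at an adjusted p of 0.774. In 3DMono AcDop differed by 0.90 the other way.
NQO1 in 3DFusi varied within a treatment, at 4.76, 3.57, 17.5 and 14.3 CPM with AcCoc, 4.54, 4.81 and 8.35 with AcMor and 7.10, 10.4 and 10.1 with Vehic, and the 3 groups overlap. Set side by side by tag number, AcMor lay under Vehic for numbers 1, 3 and 4. AcCoc lay under Vehic for number 1 and above it for 3 and 4. No member passed with the number as a block.
Of the pathway lists, 4 of 78 genes rose and 2 fell with AcCoc in 2DCocu and 0 rose and 1 fell with AcMor, where 6.1% and 0.975% of all genes were called. ME1 fell with both, at 73.0 ± 16.4 CPM with AcCoc, 64.1 ± 12.3 with AcMor and 106 ± 10 with Vehic (SD, n = 4; -0.51 and -0.70, adjusted p = 0.0364 and 0.0293). ME1 is a leading gene of cluster 6, whose share fell alongside. NFE2L2, KEAP1 and BACH1 passed in none of the 8, and in the other 6 comparisons 0 list genes passed.

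By cell class, SLC7A11 had mean levels that spanned a wide range. Over tags with 20 or more cells of a class it averaged 249 ± 216 CPM in mesenchymal-like cells (SD, n = 29, 72.8 to 1107), 138 ± 65 in radial glia or progenitor-like cells, 82.4 in astrocyte-like cells, 27.4 in excitatory neuron-like cells and 7.63 ± 5.56 in GABAergic neuron-like cells (n = 31). The excitatory mean pools unlike arrangements, with medians of 59.5 CPM in 2DCocu and 33.2 in 2DMono against 4.795 in 3DFusi and 4.47 in 3DMono. Within tags these cells lay under cluster 22, which has the lower mean, in 5 of 6 tags (-2.21, exact permutation test, adjusted p = 0.340). Classes held in fewer than 3 tags have no place in the order, among them cluster 24, at 148 CPM of SLC7A11 and 20.6 of NQO1 in 2 tags. Mesenchymal-like cells lay above GABAergic neuron-like cells in 19 of 19 tags that held both. Of cells with a count, the shares were 51.6% and 6.11%, at median depths of 16634 and 10039 counts, and 32.8% and 2.51% at 5000 counts per cell.
Neighbours in each gene's order were compared within tags by a two-sided sign-flip permutation test of the mean log2 difference. After adjustment 3 of 98 tested pairs passed. Neighbours are the classes nearest in mean level in these same data, so this number says little about classes further apart. SLC7A11 was higher in mesenchymal-like than in radial glia or progenitor-like cells by 1.66 (log2, 11 of 12 tags, permutation test, adjusted p = 0.0319). The arrangement medians had mesenchymal-like cells lower in 3DProto1For (120.5 against 190.2 CPM) and 3DProto2Xia (149.1 against 224.3), each over 1 or 2 tags a class. SLC7A11 was also higher in cycling-like than in excitatory neuron-like cells by 1.90 (21 of 24 tags, permutation test, adjusted p = 0.00980). By arrangement medians that order was turned in 2DMono (22.7 against 33.2 CPM) and in 3DProto2Xia (16.03 against 17.5), and no 2DCocu tag held 20 cycling-like cells. GCLM was higher in astrocyte-like cells than in cluster 6 by 0.68 (12 of 12 tags, exact permutation test, adjusted p = 0.0239). The other tested pairs did not pass. The rest of the 170 pairs of neighbours shared 0 to 5 tags and were not tested. At Leiden resolution 0.4, where no class bore the astrocyte-like name, 2 of 83 tested pairs passed.

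The remaining targets also differed between classes in their mean level. HMOX1 averaged 4.32 ± 3.94 CPM in cluster 13 (SD, n = 21, 0 to 14.9) and 4.08 ± 2.97 in astrocyte-like cells (n = 18), and 0.257 in excitatory neuron-like cells. These values rest on few counts per tag and class. No tested pair of neighbouring classes passed for HMOX1, so its order is uncertain. NQO1 averaged 14.1 CPM in mesenchymal-like cells, 13.98 in cluster 14, 12.5 in cluster 13 and 10.9 in astrocyte-like cells. GCLC was highest in cluster 13 (46.6) and astrocyte-like cells (43.2) and lowest in GABAergic neuron-like cells (17.3).
GCLM was highest in astrocyte-like cells, at 29.5 ± 11.2 CPM, and TXNRD1 in cluster 13 (167), radial glia or progenitor-like (120) and astrocyte-like cells (118). SOD2 ran from 142 CPM in cluster 13 to 63.9 in cluster 17, and SOD1 from 24.99 to 6.113 in the same clusters. CAT had another order: 15.2 CPM in ciliated or ependymal-like cells, 13.9 in cluster 9, 13.7 in cluster 14, 12.5 in astrocyte-like and 12.3 in excitatory neuron-like cells, and least in clusters 17, 6 and 25. These means are over whichever tags held 20 cells of a class, so arrangements weigh differently in each.
Astrocyte-like cells reached 20 cells per tag only in 2DCocu and 2DMono. There HMOX1 was at 5.20 ± 3.00 (n = 12) and 1.85 ± 1.07 CPM (n = 6), NQO1 at 13.04 ± 4.329 and 6.699 ± 1.256, and SLC7A11 at 92.6 ± 13.2 and 61.9 ± 17.5, 3 differences that were not tested.

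**Figure D5:**
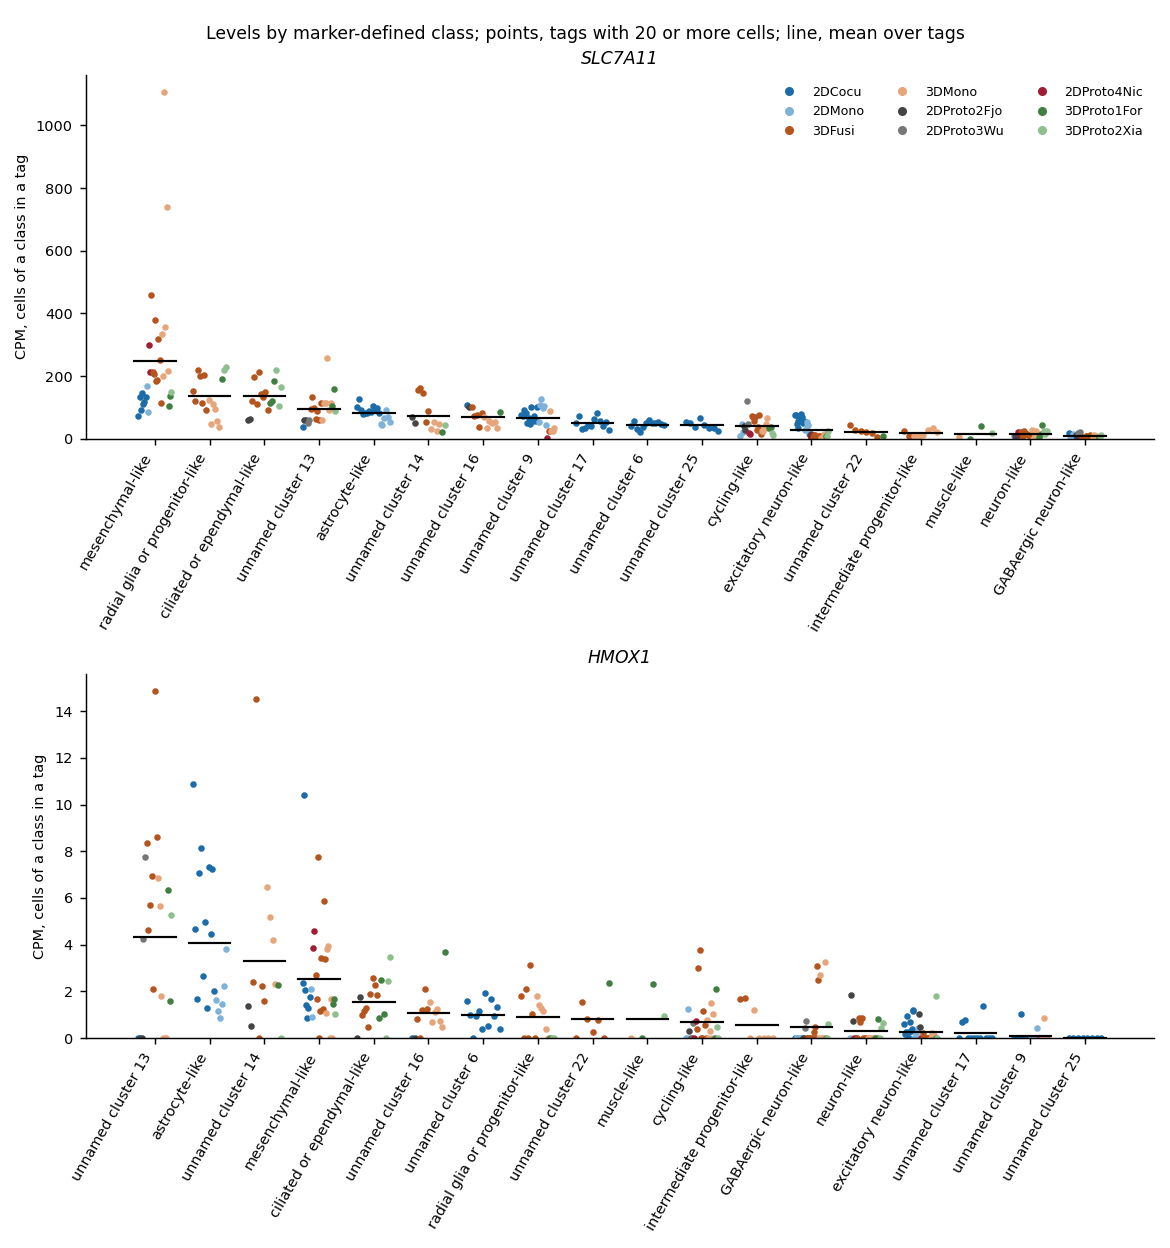
SLC7A11 (top) and HMOX1 (bottom) in CPM by class (x axis, in order of the mean; y axes from 0). Points are tags with 20 or more cells of the class, coloured by arrangement as in the legend, and lines are means over tags. SLC7A11 falls from 249 CPM in mesenchymal-like to 7.63 in GABAergic neuron-like cells, and HMOX1 from 4.32 in cluster 13 to 0 in cluster 25. HMOX1 rests on 1073 counts over all cells, so its order is uncertain.

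Across the 46 tags the 7 NRF2 targets were positively correlated. As a description, with no test, Pearson's r of log2 CPM was positive in 21 of 21 pairs of targets (median 0.366, 0.160 to 0.728) and in 30 of all 45 pairs of members. Set beside this, the median absolute r of a member with all genes was 0.193. Among the members, GCLM and TXNRD1 were the closest pair at 0.728. CAT ran against NQO1 (-0.629), SLC7A11 (-0.500) and HMOX1 (-0.477), and stood at -0.343 with TXNRD1 and -0.0812 with GCLM. Tags of an arrangement share their mix of cells, so these values reflect arrangements as well as tags.
Among 26174 genes, those most like a member were MAP7D3 for GCLM (0.837), OSTC for TXNRD1 (0.805), CCT4 and RPL23 for SOD1 (0.864 each), PAIP2 for SOD2 (0.830), CCDC91 for CAT (0.840), EIF2S3 for NQO1 (0.777), HAS1 for GCLC (0.717) and FCGRT for HMOX1 (0.701). For SLC7A11 it was its antisense gene SLC7A11-AS1 (0.780), whose reads cannot be told apart from those of SLC7A11 where strand is not stated, and then RHOA (0.687).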

How the data were processed

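The authors deposited 1 matrix of expected counts (estimated counts, 54.3% of 215531617 entries whole as deposited) for 60286 genes and 43693 cells. The submitters' processing notes name hg38, Salmon 1.7.0, alevin and Seurat 4.1.1, without roles. Whether strand was used is not stated. As deposited, cells had at least 1006 detected genes and at most 10.0% mitochondrial counts (median 12776 counts per cell), and no further cell was removed. Arrangement, treatment and number were read from the deposited cell names.

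Counts were summed per tag, or per tag and class of 20 or more cells, rounded, filtered with filterByExpr, scaled by TMM and tested with edgeR 4.0.16 (quasi-likelihood, robust; R 4.3.3, limma 3.58.1) across all genes, at a Benjamini-Hochberg adjusted p of 0.05. Tags of all treatments, or all tags with the letters Proto, shared 1 fit, and fits between arrangements had treatment as a term. DESeq2 1.42.0 was an alternative. CPM are relative to all counts of a tag, so a ratio of CPM need not equal a fold change after TMM. Clusters came from 2000 variable genes without 94 genes (members and lists), 30 components, 20 neighbours and Leiden resolution 0.8 (Python 3.11.15 with leidenalg 0.10.2, igraph 0.11.9 and scikit-learn 1.9.0, beside scipy 1.17.1 and numpy 2.4.6). A class needed at least 3 markers and 40% of a list, each in 10% of cells and 2-fold over other cells (pseudocount 1 CPM). Simulated doublets called 7095 cells (16.2%), which were kept. For shares of cells, an entry of 0.5 or more was a count, and 1600 cells under 5000 counts were left out of the thinned shares. Fits were tested on simulated data.

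The members and the pathway lists were chosen with earlier results of these data known. Named list genes are up to 3 per list and comparison, the largest changes among those called without overlap between groups. NFE2L2, KEAP1 and BACH1 are named beside these, though not all 3 in each comparison between arrangements. SLC7A5 among the falling ATF4 genes follows that rule, and cluster genes are the leading ones. Same-numbered tags of 3DFusi deviated together (r 0.160 to 0.611 over 9 pairs), so fits with its tags summed by number were added as alternatives. The main fits took its tags as separate, and no such sums were fitted within classes. In the other arrangements not every same-numbered pair passed the 0.1 set for pairing (lowest r -0.367 in 2DCocu, -0.140 in 2DMono, 0.0645 in 3DMono).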

Additional observations from a re-analysis of the deposited data

Results flagged for a closer look

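CAT, catalase, differed between the single and the combined arrangements in how it went with format. Over AcMor and Vehic tags, its log2 fold change of 3-D against 2-D was higher by 0.978 for 3DFusi against 2DCocu than for 3DMono against 2DMono (SE 0.255, adjusted p = 0.0175 for the interaction term in edgeR, where 6.68% of 24803 genes were called). It was the only one of 70 such differences between arrangements, over members and contrasts, that passed, with 3 at an unadjusted p under 0.05. The mean level was 8.13 CPM in 2DCocu and 9.07 in 3DFusi, against 16.3 in 2DMono and 10.5 in 3DMono. Without clusters 6, 17 and 25, found nearly only in 2DCocu, the difference was 0.31 (adjusted p = 0.589). In 4 groups of 4 tags (the 3 of 2DCocu, and AcCoc in 3DFusi), over 10 members, no tag stood apart. The other groups held fewer than 4 tags and were not checked.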

How the results depend on the processing

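Counts of called members were compared with 111 alternatives, of which 10 moved the count by over 1.5 times or from or to 0 and the others did not. AcCoc in 2DCocu gave 2 with DESeq2, 2 without doublets and 1 (NQO1) without the 3 own clusters of 2DCocu, against 0. With Vehic tags alone 3DMono against 2DMono gave 0 and 3DFusi against 2DCocu 2. Without the count filter 2DCocu against 2DMono gave 3 (GCLM and SOD2 lost). The difference in format between the combined and single arrangements gave 0 without the 3 own clusters of 2DCocu, against 1. Within classes, treatment gave 2 without the filter and 1 with DESeq2. The median share of cells with a count was 6.36% after thinning. The causes were not tested, and the fits with Vehic alone also held fewer tags. Leaving out 1 tag gave 2 to 3 calls in 3DMono against 2DMono, 4 in every case in 3DFusi against 2DCocu, 4 to 5 in 2DCocu against 2DMono, 6 to 12 over the protocols (10 in full, 6 without 2DProto4Nic tag 2, 12 without 3DProto1For tag 3), 10 to 12 within classes by format, 3 to 5 within classes of 2DProto4Nic against 2DProto2Fjo, 0 to 1 within classes by treatment, 0 to 1 for the difference in format and 0 elsewhere. With a replicate block on the tag number 0 members passed in every treatment comparison, and the block changed no call. In 3DMono the same-numbered pairs were all positive (r 0.0645 to 0.265, 6 pairs). With 2 tags a treatment, deviations from the treatment mean are mirror images. Each value therefore appears in 2 pairs, and each r between unlike numbers is the negative of one between like numbers. The 6 pairs thus hold fewer separate values, and pairing, which the labels do not state, cannot be judged from them. Of 192 values under other settings, which cover called genes and NQO1 and CAT for AcCoc in 2DCocu, 163 stayed called or uncalled as before. A call was lost in 24 and gained in 5, and 0 changed sign. Of 534 with a tag left out, 487 stayed as before, 47 lost a call and 0 changed sign. With total counts as scaling, added after seeing the data together with the sums by number, the fits without own clusters and the alternatives of the difference in format, no called member changed sign. Over all genes, DESeq2 called 9.64% for AcCoc and 3.45% for AcMor in 2DCocu, against 6.1% and 0.975%, 6.56% in 3DFusi against 3DMono, against 1.47%, and 7.78% in 2DProto2Fjo, against 4.94%. HMOX1 and SRXN1 are limited by depth.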
